A study of Mus musculus with 6 samples.

Results

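The secreted Wnt antagonists are extracellular proteins that keep Wnt ligands from signalling. The 10 mouse genes treated here as members were taken by symbol from the deposited expression table. They are Sfrp1, Sfrp2, Sfrp4, Sfrp5, Frzb, Dkk1, Dkk2, Dkk3, Wif1 and Notum. All 10 were found among the 24346 gene symbols of the table. They are not all such genes, and others, among them Sostdc1 and Draxin, are given below with other extracellular brakes. RNA-seq had been run on primary articular chondrocytes, the cells that build and maintain joint cartilage, from cartilage of ICR mice at postnatal day 4. There were 3 libraries from cells stimulated with semaphorin 4D (Sema4D), a ligand of plexin-B receptors, and 3 from control cells cultured without it. The labels named no genetic alteration in either group. Nothing in them said whether replicates 1 to 3 were separate cultures or animals, so the p-values measure variation among these libraries only, part or all of which may be technical. No label or note gave the dose or the length of stimulation.

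In canonical Wnt signalling a Wnt protein bridges a Frizzled receptor and the co-receptor LRP5 or LRP6, which stabilises beta-catenin and lets it act with TCF/LEF factors on target genes. Secreted frizzled-related proteins (sFRPs) carry a Frizzled-like cysteine-rich domain and bind Wnt ligands outside the cell, as does WIF1 through a domain of its own. Dickkopf proteins DKK1 and DKK2 block LRP5 and LRP6, while DKK3 is a divergent member whose part in Wnt signalling is unsettled. NOTUM is an enzyme that removes the lipid Wnt ligands need to bind Frizzled. In cartilage, Wnt activity affects chondrocyte maturation and matrix breakdown, and Frzb, also called sFRP3, was found through its expression in cartilage.

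Among the 10 member genes, expression was lower with Sema4D in every member with a level high enough to be tested. Sfrp2, Dkk3, Frzb and Wif1 fell to between 28.6% and 49.1% of their control level, and Sfrp1, near the lower limit of the test, fell to 70.6%. The summed level of the 10 genes was 183, 175 and 194 FPKM (fragments scaled to transcript length and library depth) in Sema4D libraries, against 527, 537 and 520 FPKM in control libraries. The means were 184 ± 9.28 FPKM with Sema4D and 528 ± 8.4 FPKM in control (SD, n = 3 each), so the sum was 2.87-fold lower with Sema4D. Sfrp2 was the largest part of that sum, and the other 9 genes without it summed to 93.1 ± 2.01 FPKM with Sema4D and 210 ± 3.42 FPKM in control. By limma, the moderated linear model used here, 5 tested members were lower and 0 higher at an unadjusted p under 0.05. That count follows from their adjusted calls, given below.

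**Figure D1:**
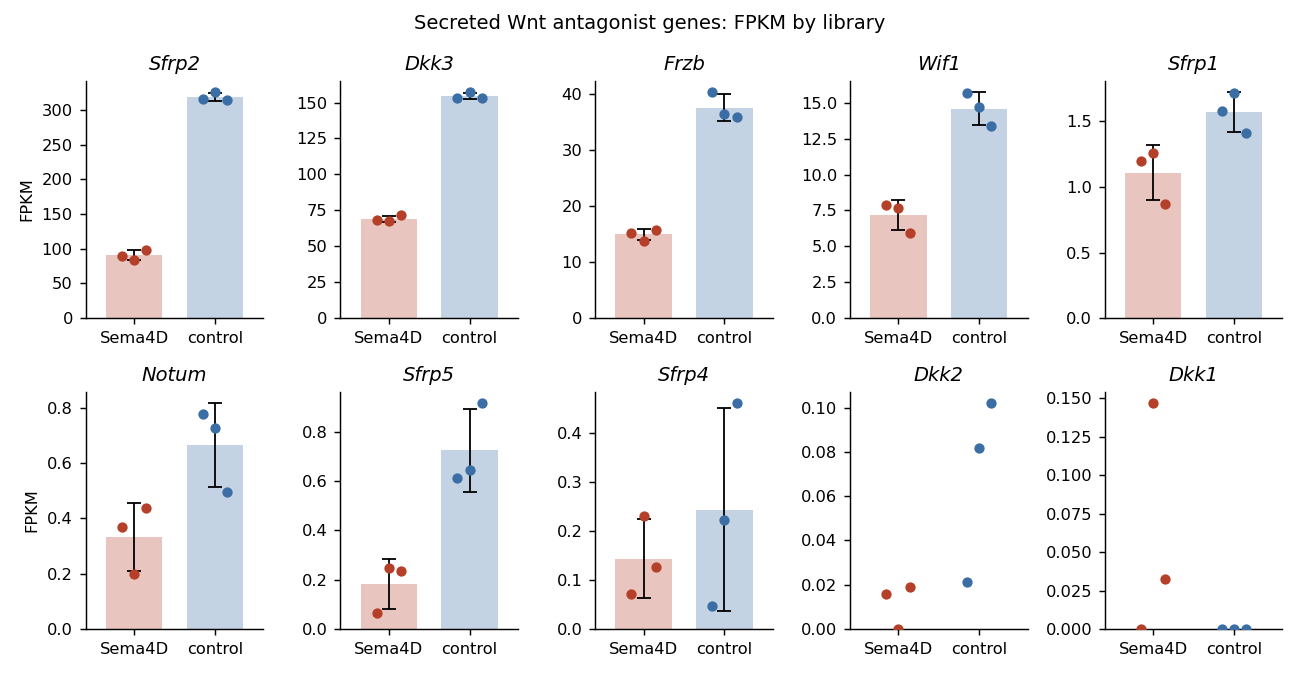
FPKM of the 10 genes in each library (points), with Sema4D left and control right and a separate linear axis from 0 for each gene; bars are means and error bars SD of 3 libraries, and the 2 genes with a listed 0 (Dkk1, Dkk2) have points alone. Sfrp2, Dkk3, Frzb, Wif1, Sfrp1, Sfrp5, Notum and Dkk2 have all Sema4D points below all control points, Dkk2 at levels of a few fragments, while Sfrp4 overlaps.

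Of the 10 members, 5 reached an average of 1 FPKM across all 6 libraries and were tested, and each of those 5 averaged at least 1 FPKM in both groups. All 5 fell at an adjusted p under 0.05. In the same fit 22.2% of the 11603 tested genes were lower and 24.5% higher. The median log2 fold change was -1.15 over the 5 members and 0.01 over all tested genes. When columns were scaled to the same sum, 3802 genes were lower and 2005 higher, and after quantile normalization 3415 were lower and 2167 higher, against 2581 lower and 2841 higher as deposited. The 5 members fell under each of these scalings. The 3 Sema4D libraries lay below the 3 control libraries for 27% of tested genes and for all 5 tested members. Fold changes are of log2(FPKM + 1) throughout, which understates changes at low levels. In these bulk libraries fewer cells of a type and less RNA per cell cannot be told apart.

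Sequences around a transcript start are shown for Sfrp2, Frzb and Wif1, which fell, and for Dkk1, which was at or near 0, to set their promoter windows beside their levels. RefSeq promoter windows in GRCm38.p6, from 250 bases before to 50 after the start, matched 6 of the 10 members. For Frzb, Wif1 and Dkk1 that start is the outer edge of the RefSeq gene, while for Sfrp2 it lies 571 bases inside the gene's edge, so that the whole Sfrp2 window is within the gene as placed here. Motifs were searched on both strands: TCF/LEF as CAAAG with A or T at each of the 2 bases before it, AP-1 as TGANTCA, and the NF-kappaB consensus. Matches to any of these are in capitals in the 4 windows, which lie at chr3:83766071-83766370 on the plus strand (Sfrp2), chr2:80447347-80447646 on the minus strand (Frzb), chr10:121033754-121034053 on the plus strand (Wif1) and chr19:30549447-30549746 on the minus strand (Dkk1), each printed 5′ to 3′ along the gene.
Sfrp2: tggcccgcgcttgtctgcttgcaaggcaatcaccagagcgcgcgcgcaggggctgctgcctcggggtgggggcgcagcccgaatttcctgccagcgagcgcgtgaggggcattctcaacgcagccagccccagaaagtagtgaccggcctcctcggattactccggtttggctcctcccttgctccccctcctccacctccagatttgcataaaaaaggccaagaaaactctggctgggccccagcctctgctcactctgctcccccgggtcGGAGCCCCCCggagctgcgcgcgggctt
Frzb: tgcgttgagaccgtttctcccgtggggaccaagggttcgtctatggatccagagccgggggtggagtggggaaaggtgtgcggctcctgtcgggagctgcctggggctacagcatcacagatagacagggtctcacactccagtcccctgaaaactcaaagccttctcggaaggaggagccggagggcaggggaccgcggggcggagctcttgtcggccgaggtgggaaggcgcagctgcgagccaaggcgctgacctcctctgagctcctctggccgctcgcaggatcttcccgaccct
Wif1: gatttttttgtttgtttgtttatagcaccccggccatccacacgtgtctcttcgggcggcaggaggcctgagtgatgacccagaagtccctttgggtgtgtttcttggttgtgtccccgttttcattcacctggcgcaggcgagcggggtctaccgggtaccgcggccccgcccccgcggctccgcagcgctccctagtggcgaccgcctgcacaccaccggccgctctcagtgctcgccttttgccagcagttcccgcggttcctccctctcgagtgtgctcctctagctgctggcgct
Dkk1: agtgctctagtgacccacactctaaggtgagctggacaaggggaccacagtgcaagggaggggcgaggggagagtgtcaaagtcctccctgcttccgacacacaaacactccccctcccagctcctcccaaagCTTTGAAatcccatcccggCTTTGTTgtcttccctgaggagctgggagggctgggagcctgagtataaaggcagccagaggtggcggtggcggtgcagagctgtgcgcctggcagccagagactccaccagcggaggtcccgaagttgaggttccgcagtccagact

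The windows of Sfrp2, Frzb and Wif1 were rich in CpG, with 22, 20 and 25 CpG dinucleotides and a GC content of 66%, 64.7% and 63%. Over all 32544 distinct windows of that length the median was 7 CpG, with an upper quartile of 20, and the median GC content was 53%. Dkk1 had 9 CpG and 60.7% GC. The windows not shown were those of Sfrp5, with 15 CpG and 61.3% GC, and Dkk2, with 11 CpG and 57.7% GC. The Dkk1 window held 2 TCF/LEF matches on the minus strand, first bases at -117 and -98 from the start, and 16.9% of all windows held at least 1. No TCF/LEF match was found in the windows of Sfrp2, Frzb or Wif1. The single NF-kappaB match was on the minus strand in the Sfrp2 window with its first base at 23, past the start, against 8.49% of all windows with a match. AP-1, in 7.79% of all windows, had no match in these 4. A match is a run of letters and no evidence of binding.

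Among the sFRP genes, Sfrp2 was the most highly expressed. Sfrp2 (chromosome 3, 83765750 to 83774314) had 89.8, 84.3 and 98.8 FPKM in Sema4D libraries, against 315, 325 and 314 FPKM in control libraries. The groups were far apart, with every control library more than 3-fold above every Sema4D library. The log2 fold change was -1.80 (SE 0.053, limma adjusted p = 4.08e-08), at a level ranked 306 from the top. By log2(FPKM + 1) change Sfrp2 was the number 19 fall of the 11603 tested genes. In that order, used below as well, falls at low levels count for less.

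Frzb (chromosome 2, 80411970 to 80447396) had 15.2, 13.8 and 15.8 FPKM in Sema4D libraries, against 40.3, 36.4 and 35.8 FPKM in control libraries. All control libraries were more than 2-fold above every Sema4D library. The log2 fold change was -1.27 (SE 0.061, limma adjusted p = 7.66e-07), number 51 among the falls.

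Sfrp1, whose protein is of the same subfamily as SFRP2 and SFRP5, stood near the detection filter. Sfrp1 (chromosome 8, 23411383 to 23449632) had 1.2, 1.26 and 0.868 FPKM in Sema4D libraries, against 1.58, 1.72 and 1.41 FPKM in control libraries. The groups did not overlap, but the gap between them was smaller than the range within either. The log2 fold change was -0.29 (SE 0.099, limma adjusted p = 0.0426). The adjusted p lay between 0.0231 and 0.118 over the alternatives. The call was lost without Sema4D replicate 1 (0.0579) or 3 (0.104), without control replicate 1 (0.0912) or 2 (0.118), with no filter on low values (0.0504) and when 0.1 in place of 1 was added to FPKM (0.0503). From the depth of each library, Sfrp1 was estimated to rest on 89.5, 87.3 and 54.1 fragments with Sema4D and on 88.3, 124 and 98.2 in control.

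Sfrp5 and Sfrp4 were under the filter. Sfrp5 had 0.0658, 0.247 and 0.233 FPKM in Sema4D libraries, against 0.613, 0.643 and 0.916 FPKM in control libraries, about 2, 6.98 and 6.04 fragments against 14, 19 and 25.9. Its mean was 25.1% of control, the lowest proportion among members with no listed 0, and its groups did not overlap. With no filter on low values it was lower (log2 fold change -0.54, SE 0.089, limma adjusted p = 0.00363), in a fit where 16% of 17461 genes were. Sfrp4, studied for its role in bone, had 0.0718, 0.231 and 0.127 FPKM with Sema4D and 0.0478, 0.222 and 0.462 FPKM in control. The Sfrp4 groups overlapped, and the control libraries were widely spread (no-filter limma adjusted p = 0.542).

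The Dickkopf genes differed in level by orders of magnitude. Dkk3 (chromosome 7, 112116019 to 112159482) had 68.5, 67.4 and 71.5 FPKM in Sema4D libraries, against 153, 157 and 153 FPKM in control libraries. The 3 libraries of each group lay close together, and Dkk3 had the smallest SE of the 5 tested members. Its log2 fold change was -1.15 (SE 0.031, limma adjusted p = 2.44e-08), number 81 among the falls.

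Dkk1, the LRP5 and LRP6 blocker, was listed at 0, 0.147 and 0.0324 FPKM in Sema4D libraries, against 0, 0 and 0 FPKM in control libraries. Dkk2 was listed at 0.0159, 0 and 0.0188 FPKM in Sema4D libraries, against 0.0211, 0.0818 and 0.102 FPKM in control libraries. These are a handful of fragments at most: Dkk2 values stood for about 0.995, 0 and 0.987 fragments with Sema4D and 0.993, 4.97 and 5.96 in control. Neither gene passed with no filter on low values (limma adjusted p = 0.284 for Dkk1 and 0.132 for Dkk2), and a difference in either was not detectable at this depth. An exact 0 in these values can also be a failed estimate.

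Wif1, whose protein binds Wnt ligands directly, fell as well. Wif1 (chromosome 10, 121034004 to 121100642) had 7.87, 7.65 and 5.95 FPKM in Sema4D libraries, against 15.7, 14.7 and 13.4 FPKM in control libraries. Every control library was above every Sema4D library, and Sema4D replicate 3 was the lowest of all. The log2 fold change was -0.94 (SE 0.097, limma adjusted p = 8.34e-05), number 151 among the falls.

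Notum, the Wnt-inactivating enzyme and itself a known target of the pathway, was under the filter. Notum had 0.369, 0.198 and 0.436 FPKM in Sema4D libraries, against 0.777, 0.727 and 0.494 FPKM in control libraries. By its longest transcript these were about 13.3, 6.62 and 13.3 fragments with Sema4D, against 21, 25.4 and 16.5 in control. The groups did not overlap, although the highest Sema4D value was close to the lowest control value. With no filter on low values Notum was lower (log2 fold change -0.32, SE 0.092, limma adjusted p = 0.0362). Of the 5 members under the filter, Sfrp5, Notum and Dkk2 had all Sema4D libraries below all control libraries, as did 12.7% of the 5858 symbols under the filter with a value above 0, these members included. GENCODE M21 places antisense genes over parts of Notum and Sfrp2, and no source used here gave the strand setting of the authors' counting, so reads from those partners cannot be told apart there.

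**Figure D2:**
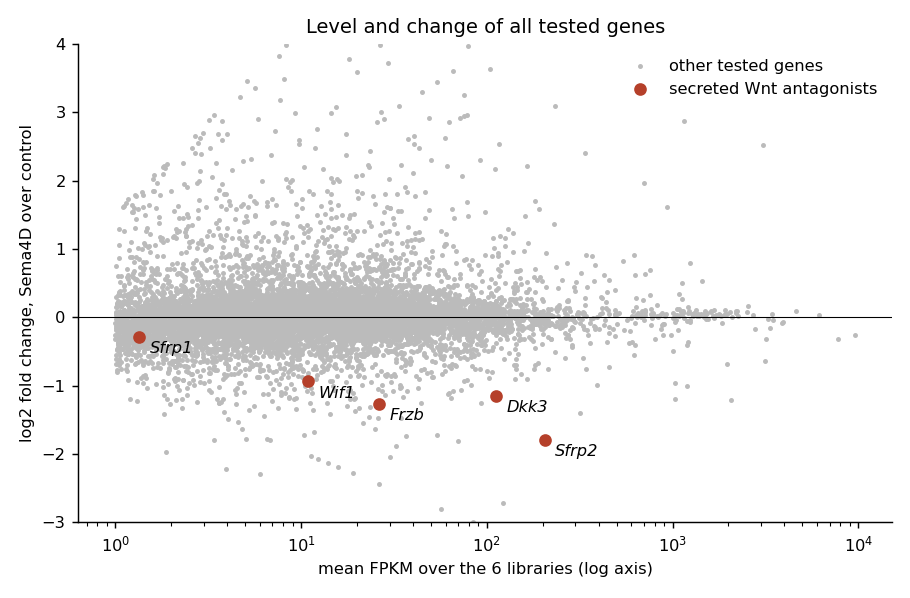
Log2 fold change of Sema4D over control (vertical axis, log2(FPKM + 1) scale) against mean FPKM over the 6 libraries (horizontal, log axis) for the 11603 tested genes, 38 of which lie outside the plotted range of -3 to 4. The 5 tested secreted Wnt antagonists (large points) are all below 0, with Sfrp2 at -1.80 and Sfrp1 at -0.29.

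FPKM is scaled to length, so levels can be set side by side between genes. The order of levels was Sfrp2, Dkk3, Frzb, Wif1 and Sfrp1 in every library of both groups, followed by genes under 1 FPKM. Among these 5 no neighbours in the order overlapped within a group. Below them, Sfrp5 and Notum overlapped in both groups. Sfrp2 and Dkk3 together made up 86.4% to 87.9% of the summed level in Sema4D libraries and 88.8% to 89.9% in control libraries.

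The proportions among the members differed between the groups' libraries, with no test run on them. Sfrp2 made up 48.1% to 51% of the summed level with Sema4D and 59.8% to 60.6% in control, while Dkk3 made up 36.9% to 38.5% with Sema4D and 29% to 29.5% in control. The level of Sfrp2 was 1.31, 1.25 and 1.38 times that of Dkk3 in Sema4D libraries, against 2.06, 2.07 and 2.05 times in control libraries. This ratio is taken within each library and so does not depend on how libraries are scaled to each other. Dkk3 stood at 4.5, 4.9 and 4.53 times the level of Frzb in Sema4D libraries, against 3.8, 4.31 and 4.28 times in control libraries. The Dkk3 to Frzb gap between groups was narrow. Frzb stood at 1.94, 1.8 and 2.65 times the level of Wif1 in Sema4D libraries, against 2.57, 2.47 and 2.67 times in control libraries, and those groups overlapped.

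**Figure D3:**
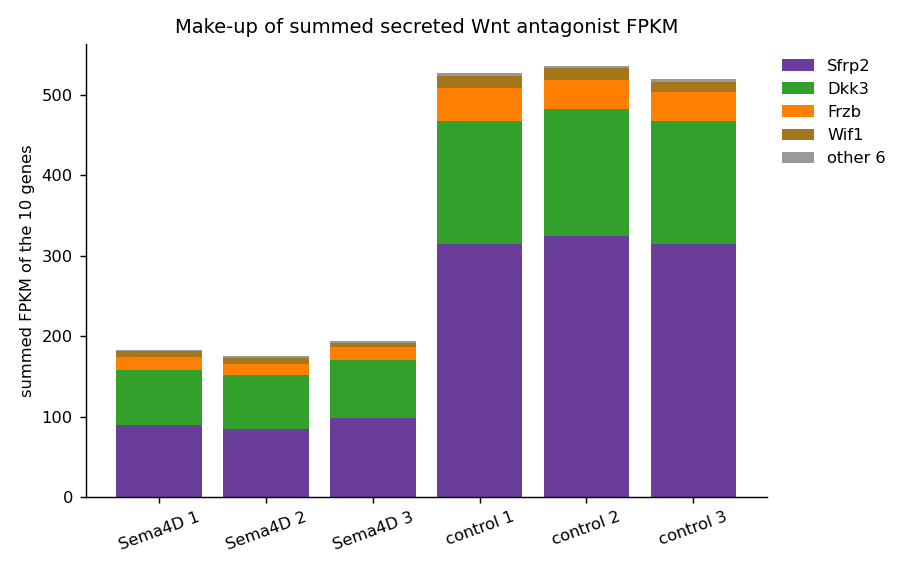
Stacked FPKM of the 10 genes in each library, Sema4D libraries left and control libraries right, coloured by gene with the 6 lowest genes pooled. The stacks reach 175 to 194 FPKM with Sema4D and 520 to 537 FPKM in control, and the Sfrp2 part shrinks most.

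By closeness of the centred log2(FPKM + 1) profile over the 6 libraries, the protein-coding genes nearest to Sfrp2 were Aqp1, Ndnf, Id1, Angptl1 and Smpd3, with root mean square differences of 0.049 to 0.082. Their log2 fold changes lay between -1.81 (Aqp1) and -1.72 (Angptl1). The genes nearest to Dkk3 were Ntrk3, Tgfb3, Cd24a, Cryab and Ckb, with differences of 0.034 to 0.041 and log2 fold changes between -1.20 (Ckb) and -1.09 (Ntrk3). With 3 libraries a group, this measure mainly reflects a like size of change on the log2(FPKM + 1) scale. In FPKM, control over Sema4D ran from 3.46 (Id1) to 6.02 (Ndnf) among the genes nearest to Sfrp2, against 3.5 for Sfrp2. Ndnf averaged 0.965 FPKM with Sema4D and 5.81 FPKM in control, and so passed the filter only through control.

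Other genes of the pathway were examined in 5 lists written with earlier results of these data known. Of 82 listed symbols, which name 81 genes because Ccn4 is a newer name of Wisp1, 79 were in the table and 49 were tested, of which 24 fell, 10 rose and 15 did not pass the threshold. The median log2 fold change was -0.17. This gives 24 of 49 lower, beside 22.2% of all tested genes, and 10 of 49 higher, beside 24.5%. Of the 24, Wnt9a, Lgr5 and Lgr6 were under 1 FPKM with Sema4D and passed the filter only through control, so that their tests favour a fall. Without them 21 of 46 were lower and 10 higher, while of the 11212 genes that averaged at least 1 FPKM in both groups 22% were lower and 23.8% higher.

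Of 6 tested other extracellular brakes, 3 fell and 1 rose. Igfbp4, an IGF-binding protein that can also bind Frizzled 8 and LRP6, fell to 191 ± 14.1 FPKM with Sema4D, against 272 ± 5.74 FPKM in control (SD, n = 3 each; log2 fold change -0.51, limma adjusted p = 6.44e-05). Tpbg (-0.27), the gene of the glycoprotein 5T4, and Trabd2b (-0.17), whose product cleaves Wnt proteins, also fell. The Dickkopf receptor gene Kremen1 had 19.9 ± 0.198 FPKM with Sema4D and 17.8 ± 0.608 FPKM in control (0.16, limma adjusted p = 0.009), and its call was lost with columns scaled to the same sum (0.123) or quantile normalization (0.0648). The antagonist genes Sostdc1 and Draxin, under the filter and singled out once their values were known, were higher with no filter, as were 17.2% of all genes in that fit. Sostdc1 had 1.41, 1.82 and 1.24 FPKM with Sema4D and 0.432, 0.334 and 0.387 FPKM in control, with no overlap (no-filter limma adjusted p = 0.0005). Draxin averaged 0.638 ± 0.0872 FPKM with Sema4D and 0.166 ± 0.0458 FPKM in control (no-filter limma adjusted p = 0.000501). Sost, the gene of sclerostin, was listed at 0 in every library.

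Of 7 tested ligand and export genes, 3 fell and 1 rose, and 14 were under the filter. Of those under it, Wnt10a had 0.957 ± 0.0958 FPKM with Sema4D and 0.182 ± 0.172 FPKM in control. With no filter Wnt10a was higher (limma adjusted p = 0.00176), as was Wnt6 (0.0262), while Wnt4 was lower (0.0055). In that fit 17.2% of all genes were higher and 16% lower. Wnt6 had only 0.269, 0.128 and 0.106 FPKM with Sema4D and 0, 0.0308 and 0 FPKM in control, values near the floor. Wnt4 had 0.266 ± 0.114 FPKM with Sema4D and 0.663 ± 0.0634 FPKM in control. Wnt5a, a ligand mostly of non-canonical signalling, had 4.08 ± 0.307 FPKM with Sema4D and 4.36 ± 0.215 FPKM in control (-0.08, limma adjusted p = 0.353). Wnt5b had 3 ± 0.287 FPKM with Sema4D and 4.16 ± 0.639 FPKM in control (-0.36, adjusted p = 0.0157 by limma, 0.0576 without Sema4D replicate 1). Wnt9a, a ligand of developing joints, had 0.765 ± 0.127 FPKM with Sema4D and 1.36 ± 0.344 FPKM in control (-0.41, limma adjusted p = 0.0261). Wnt10b had 2.13 ± 0.651 FPKM with Sema4D and 1.16 ± 0.108 FPKM in control (0.51, limma adjusted p = 0.0221). The Wnt9a call was lost without Sema4D replicate 2 or 3 or control replicate 1 or 3, with an adjusted p of up to 0.0825. The Wnt10b call was lost without Sema4D replicate 1 or 3 or control replicate 1 or 3, with an adjusted p of up to 0.0763.

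Receptor genes were mostly lower. Of 16 tested receptors, co-receptors and glypicans, 10 fell, 1 rose and 5 did not pass. The Frizzled genes Fzd8, Fzd9 and Fzd2 fell most. Fzd8 had 11.6 ± 0.674 FPKM with Sema4D and 27.6 ± 1.02 FPKM in control (-1.19, SE 0.050, limma adjusted p = 3.32e-07). Fzd9 had 22.4 ± 2.15 FPKM with Sema4D and 46.5 ± 1.86 FPKM in control (-1.03), and Fzd2 had 19.9 ± 1.53 FPKM with Sema4D and 36.7 ± 0.702 FPKM in control (-0.85). The co-receptor gene Lrp6 fell (-0.51, limma adjusted p = 5.01e-06), while Lrp5 stood at 24.2 ± 0.718 FPKM with Sema4D and 24.9 ± 1.71 FPKM in control (-0.04, limma adjusted p = 0.572). Ror2, a receptor for Wnt5a, fell (-0.23, limma adjusted p = 0.028), a call lost without Sema4D replicate 1 (0.0773), control replicate 2 (0.0907) or control replicate 3 (0.0852) and with no filter (0.0563).

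Of the 5 tested genes of R-spondins, which amplify Wnt signals, and their LGR receptors, 2 rose and 3 fell. Rspo3 rose to 15.6 ± 0.259 FPKM with Sema4D, against 8.03 ± 0.233 FPKM in control (log2 fold change 0.88, SE 0.040, limma adjusted p = 5.91e-07). Rspo2 rose to 24.1 ± 1.43 FPKM with Sema4D, against 16 ± 0.161 FPKM in control (0.56). Lgr4 fell to 19.3 ± 0.957 FPKM with Sema4D, against 25 ± 0.904 FPKM in control (-0.36). Lgr5 had 0.836 ± 0.0577 FPKM with Sema4D and 1.76 ± 0.0737 FPKM in control (-0.59), and Lgr6 had 0.695 ± 0.149 FPKM with Sema4D and 1.59 ± 0.149 FPKM in control (-0.61), both tested only because of their control level.

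Of 15 tested intracellular components and targets, 5 fell and 5 rose. The feedback inhibitor gene Nkd1 fell to 1.74 ± 0.232 FPKM with Sema4D, against 5.5 ± 0.166 FPKM in control (-1.25, SE 0.074, limma adjusted p = 2.89e-06). Wisp1 (-0.73) and the cyclin gene Ccnd1 (-0.65), both known beta-catenin targets, also fell. Myc, another known target, rose to 24.7 ± 1.26 FPKM with Sema4D, against 18.7 ± 0.593 FPKM in control (0.38, limma adjusted p = 0.000204). Nkd2 and Tnfrsf19, under the filter, were higher with no filter (limma adjusted p = 0.0157 and 0.0356), as were 17.2% of all genes in that fit. Both levels were low. Nkd2 had 0.332 ± 0.129 FPKM with Sema4D and 0.0757 ± 0.0372 FPKM in control, and Tnfrsf19 had 0.355 ± 0.0648 FPKM with Sema4D and 0.204 ± 0.0448 FPKM in control. Lef1, which encodes a transcription partner of beta-catenin, rose to 5.38 ± 0.527 FPKM with Sema4D, against 4 ± 0.146 FPKM in control (0.35, limma adjusted p = 0.00388). Of the other TCF/LEF genes listed, Tcf7l1 fell to 13.9 ± 0.0819 FPKM with Sema4D, against 20.9 ± 0.488 FPKM in control (-0.55, limma adjusted p = 4.46e-06). Tcf7l2 fell to 4.73 ± 0.342 FPKM with Sema4D, against 6.7 ± 0.0915 FPKM in control (-0.43, limma adjusted p = 0.000373). Tcf7 (-0.04, limma adjusted p = 0.822) and the beta-catenin gene Ctnnb1 (0.04, limma adjusted p = 0.269) did not pass. Axin2, a widely used readout of canonical signalling, was under the filter at 0.795, 0.809 and 0.86 FPKM in Sema4D libraries, against 1.06, 1.14 and 0.882 FPKM in control libraries (no-filter limma adjusted p = 0.112). Its mean was 79.9% of control. All Sema4D values lay below all control values by a narrow gap, as for 12.7% of symbols under the filter with a value above 0.

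**Figure D4:**
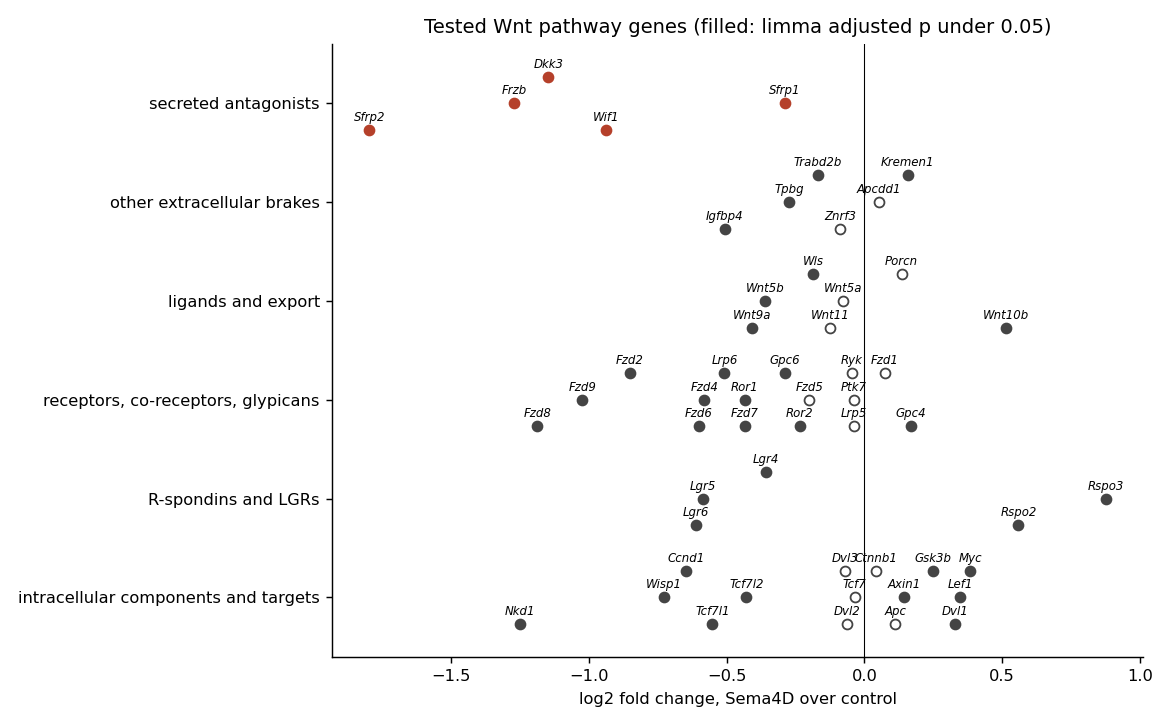
Log2 fold change of Sema4D over control for each tested Wnt pathway gene, by list; filled points passed a limma adjusted p under 0.05 and open points did not, and vertical offsets within a list only separate names. Sfrp2 (-1.80) lies farthest left and Rspo3 (0.88) farthest right.

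Defining chondrocyte genes were abundant, with Col2a1, the cartilage collagen, at 8796 ± 372 FPKM with Sema4D and 10506 ± 472 FPKM in control (SD, n = 3 each), so the labelled cell type carried its markers. The 11 chondrocyte markers in the table summed to 11792 to 12764 FPKM in Sema4D libraries and 14774 to 15907 FPKM in control libraries, and 10 of them fell, among them Lect1 (-0.49), Sox9 (-0.87) and Acan (-0.73). Col2a1 (-0.26) lost its call under quantile normalization (limma adjusted p = 0.459). Of 8 tested fibroblast and synovial markers 3 rose and 3 fell, by amounts that reached those of the antagonist genes. Cd248 fell to 13.3 ± 1.34 FPKM with Sema4D, against 38.9 ± 1.62 FPKM in control (-1.48), and Dpt to 11.5 ± 1.17 FPKM with Sema4D, against 23.2 ± 1.05 FPKM in control (-0.95), while Pdgfra rose to 42.3 ± 0.661 FPKM with Sema4D, against 22.8 ± 0.678 FPKM in control (0.86). The sum of the list rests mostly on its collagen genes, and the 9 in the table summed to 5021 to 5253 FPKM with Sema4D and 5042 to 5416 FPKM in control. Col1a1, the largest of these, was at 3820 ± 89.5 FPKM with Sema4D and 4011 ± 159 FPKM in control, and Col3a1 at 1166 ± 32.9 FPKM with Sema4D and 1092 ± 39.9 FPKM in control. Of 4 tendon markers, 3 fell and Thbs4 rose (0.27). Mkx fell most, to 2.79 ± 0.247 FPKM with Sema4D, against 8.36 ± 0.106 FPKM in control (-1.31), followed by Scx (-0.49) and Tnmd (-0.47), with a list sum of 55.4 to 58.5 FPKM with Sema4D and 62.7 to 65.3 FPKM in control. The 7 macrophage and osteoclast markers summed to 76.5 to 80.2 FPKM with Sema4D and 62.5 to 65.3 FPKM in control, mostly Ctsk, and of the 4 tested 1 rose (Ctsk, 0.34), 1 fell and 2 did not pass. The one that fell was Tyrobp, which passed the filter only through control. Tyrobp had 0.636 ± 0.282 FPKM with Sema4D and 1.68 ± 0.654 FPKM in control (-0.70, limma adjusted p = 0.0153). Adgre1, under the filter, had 0.673 ± 0.0979 FPKM with Sema4D and 0.203 ± 0.108 FPKM in control. With no filter Adgre1 was higher (limma adjusted p = 0.00352), and Csf1r did not pass (0.534). Acp5 was at 5.08 ± 0.389 FPKM with Sema4D and 5.55 ± 0.305 FPKM in control, and Ptprc, the leukocyte marker, was under 0.2 FPKM in every library. All 5 endothelial markers, Pecam1 and Cdh5 among them, were under 0.5 FPKM in every library. The 6 osteoblast markers summed to 1.33 to 1.79 FPKM with Sema4D and 2.04 to 2.58 FPKM in control. Bglap and Sp7 had the highest means over all libraries, Sp7 through control. Sp7 had 0.183 ± 0.0844 FPKM with Sema4D and 0.709 ± 0.164 FPKM in control (no-filter limma adjusted p = 0.00302). The 5 muscle markers, led by Acta1 and Des, summed to 3.77 to 4.9 FPKM with Sema4D and 5.03 to 5.9 FPKM in control. Sfrp2 and Dkk3 are also known from fibroblasts, and the part of Cd248, Mkx and the other markers in the falls of the antagonist genes was not tested.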

How the data were processed

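The deposited table held FPKM per gene symbol, 1 column per library, as the authors computed it. The control columns match the sample titles; the other 3 are headed as stimulated and were taken as the Sema4D libraries, the only stimulation in the labels, by that word and the replicate number, and the direction of every difference rests on this match. The submitters' processing notes name Cufflinks 2.2.1, SAMtools 0.1.19, TopHat2 2.0.13, Bowtie2 2.2.3 and mm10 without roles. No source used here gave the annotation, the strand setting or any scaling between libraries. Members and gene lists were chosen with earlier results of these data known. Genes averaging 1 FPKM or more across all 6 libraries (11603 of 24346) were tested with limma 3.58.1 in R 4.3.3 (lmFit, eBayes with a trend, two-sided) on log2(FPKM + 1), all 3 libraries a group, with no replicate block and Benjamini-Hochberg adjustment over all tested genes; the fit was tested on simulated data. A count test needs counts and was not used. Library depth came from low FPKM steps of 1681 single-transcript genes over 2000 nucleotides at 1.48e+07 to 1.79e+07 fragments in Sema4D and 1.34e+07 to 1.74e+07 in control libraries, with 79.5% to 86.3% of low values within 0.15 of a whole fragment. Such estimates cover counting error only. Pearson's r across tested genes lay between 0.983 and 0.991 for libraries of 1 group, and between 0.935 and 0.942 for Sema4D with control libraries. Gene positions and promoter windows are RefSeq's in GRCm38.p6, the assembly of mm10. All members were named, with the 3 largest called changes of each Wnt list. The 2 highest genes of each marker list and some genes fixed by name were named as well. Rspo2, Lgr4, Sost, Sostdc1, Draxin, Ptprc, Cd248, Dpt, Pdgfra, Mkx, Tnmd and Tyrobp were added after their values were seen. So were Myc, Tcf7l1, Tcf7l2, Nkd2, Tnfrsf19, Wnt4, Wnt6, Wnt10a, Adgre1 and Csf1r. Levels are means ± SD of 3 libraries. Alternatives were a pseudocount of 0.1, other filters, scalings, moderation without a trend, a replicate block and leaving out each library. Figures used Python 3.11.15 with matplotlib 3.10.9.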

Additional observations from a re-analysis of the deposited data

How the results depend on the processing

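Sfrp2, Dkk3, Frzb and Wif1 were lower and past the threshold in all 13 alternatives run, with log2 fold changes of -1.91 to -1.75 for Sfrp2, -1.38 to -1.22 for Frzb, -1.24 to -1.13 for Dkk3 and -1.06 to -0.83 for Wif1. Sfrp1 kept its direction and lost its call in 6 of the 12 alternatives that tested it. The count of members that fell was 4 to 6 over the alternatives and 5 with a replicate block. With no filter on low values 6 fell, with Sfrp5 and Notum joining and Sfrp1 lost. Other extracellular brakes that rose numbered 3 with no filter and 0 with columns scaled to the same sum or quantile normalization. Ligand genes that rose numbered 3 with no filter, 0 at a mean FPKM of at least 5, and 0 to 1 with 1 library left out; those that fell numbered 1 at a mean FPKM of at least 5, as did the LGR genes, since fewer genes were tested. Among genes that did not pass, the sign turned for Ctnnb1 (-0.04 with columns scaled to the same sum and -0.04 with quantile normalization), Tcf7 (0.00 without Sema4D replicate 1 and 0.03 without replicate 2, with a range of -0.14 to 0.03 when 1 library was left out) and Lrp5 (0.01 without control replicate 2, with a range of -0.07 to 0.01). Of the markers that did not pass, Col1a1 passed with columns scaled to the same sum (-0.15) and without control replicate 1 (-0.10), Col3a1 in 3 alternatives (0.09 to 0.12), Acta1 in 3 (-0.34 to -0.23) and Acp5 with columns scaled to the same sum (-0.19). The cause was not tested. Same-numbered libraries did not all deviate together (correlations of 0.140, -0.081 and -0.054 for numbers 1, 2 and 3), so the numbers were not taken as pairs. Libraries of other numbers ran from -0.074 to 0.136. Of these, Sema4D replicate 2 with control replicate 3 (0.103) and Sema4D replicate 3 with control replicate 2 (0.136) were positive. A pairing by other numbers was not tested. The replicate block, by same number, changed no call of a member. Depth limits Dkk1, Dkk2, Sfrp4 and Sfrp5, each at a few fragments in some libraries, and Notum, at about 6.62 fragments in Sema4D replicate 2.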
